A study of Homo sapiens with 6 samples.

Results

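The genes described here encode subunits of the anaphase-promoting complex, or cyclosome (APC/C), and the pair of ubiquitin-conjugating (E2) enzymes that work with it. They were chosen by name, with earlier results of these data known, so their calls are no independent evidence of a direction. The members are ANAPC1, ANAPC2, ANAPC4, ANAPC5, ANAPC7, ANAPC10, ANAPC11, ANAPC13, UBE2C and UBE2S, 10 of the 58825 genes in the count table. RNA was sequenced from SKOV3 cells, an established human ovarian cancer line, transfected for 48 h with an siRNA against EIF5A2 (si-EIF5A2) or with a negative control RNA (NC), with 3 libraries in each group. EIF5A2 encodes a translation factor, and the comparison asks which transcripts differed when it was reduced. The study's methods describe a transient transfection and list a single siRNA duplex for EIF5A2, so the contrast rests on 1 cell line and 1 duplex, and no source states whether the libraries came from separate cultures.

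The APC/C is a ubiquitin ligase that drives cells out of mitosis by marking securin, cyclins and other mitotic proteins for destruction by the proteasome. Its cullin subunit ANAPC2 and RING subunit ANAPC11 form the catalytic module, ANAPC10 helps to recognise substrates, ANAPC1, ANAPC4 and ANAPC5 build the platform, and ANAPC7 belongs to the arm of tetratricopeptide repeat proteins that small subunits such as ANAPC13 stabilise. UBE2C places the first ubiquitins on a substrate and UBE2S extends the chain, while CDC20 or FZR1 (CDH1) brings the substrate to the complex.

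The sequences upstream of 3 members are shown because these genes gave the largest falls among the members with a RefSeq promoter window (UBE2S and ANAPC5) and the only member whose si-EIF5A2 libraries all lay above the NC libraries (ANAPC7). Each is the 250 bases before the RefSeq start on GRCh38.p14, 5′ to 3′ on the minus strand: chr19:55407789-55408038 for UBE2S, chr12:121352412-121352661 for ANAPC5 and chr12:110403709-110403958 for ANAPC7. Capitals mark a CCAAT box read on the other strand (ATTGG) in UBE2S and ANAPC5, and a cell cycle homology region element (CHR) read on the other strand (TTCAAA) in ANAPC7.
UBE2S: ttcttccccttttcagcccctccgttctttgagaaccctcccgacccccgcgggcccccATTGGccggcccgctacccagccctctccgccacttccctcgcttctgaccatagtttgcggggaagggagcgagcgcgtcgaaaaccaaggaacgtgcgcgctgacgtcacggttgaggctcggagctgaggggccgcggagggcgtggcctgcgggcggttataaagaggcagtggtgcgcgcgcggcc
ANAPC5: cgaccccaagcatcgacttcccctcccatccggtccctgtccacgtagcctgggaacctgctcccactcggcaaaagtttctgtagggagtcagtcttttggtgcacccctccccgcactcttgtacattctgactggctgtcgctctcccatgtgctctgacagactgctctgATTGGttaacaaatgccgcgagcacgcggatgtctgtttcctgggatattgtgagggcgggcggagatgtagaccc
ANAPC7: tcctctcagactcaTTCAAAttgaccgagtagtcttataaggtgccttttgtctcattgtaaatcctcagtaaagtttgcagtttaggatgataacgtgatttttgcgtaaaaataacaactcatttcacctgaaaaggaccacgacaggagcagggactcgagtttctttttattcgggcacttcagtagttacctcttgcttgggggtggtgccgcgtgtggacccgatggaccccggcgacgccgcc

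Elements that are common in promoters of cell cycle genes were searched on both strands in windows reaching from 250 bases before to 50 bases after a start, in the 9 members with such a window (UBE2C was named only). A CHR (TTTGAA or TTTAAA) was found in 3 members, ANAPC1, ANAPC7 and ANAPC10, and in 24% of all 35114 windows. The ANAPC10 match lay in 1 of its 4 windows. A CCAAT box was found in 3 members, UBE2S, ANAPC5 and ANAPC11, and in 34.6% of all windows. An E2F element (TTTCCCGC, TTTGGCGC, TTTCGCGC or TTTGCCGC) was found in 0 of the 9 members and in 3.31% of all windows. A member counted once if any of its windows matched, and the 9 members had 17 windows. Counts of members and shares of windows are therefore unlike measures. No searched motif contains another on either strand, and a match describes these letters only.

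The knockdown was visible in the targeted gene. Levels are given as CPM, the deposited estimated counts scaled to library size with TMM factors. EIF5A2 gave 27.8, 29.8 and 29.9 CPM in the NC libraries and 2.76, 4.04 and 4.27 CPM in the si-EIF5A2 libraries. This left 12.7% of the control level (log2 fold change −2.98, SE 0.18, Benjamini-Hochberg adjusted p = 1.6e-05 in the quasi-likelihood test of edgeR). The libraries held between 46900204 and 74142267 counts, and correlations of log2 CPM were 0.964 to 0.974 within groups and 0.929 to 0.938 between groups. The keratins KRT8 and KRT18 were abundant (mean 608 and 418 CPM in NC), and the blood genes PTPRC and CD3E had 0 counts in every library. Of the other non-epithelial markers, HBB reached 0.146 CPM in 1 library and was at 0 in the rest, and the endothelial gene PECAM1 was at 1.87 ± 0.226 CPM in the controls and 0.318 ± 0.335 CPM after knockdown (adjusted p = 0.0941, edgeR). ERBB2, which is known to be amplified in SKOV3, stood at 45.9 ± 2.30 CPM for NC and 45.4 ± 2.98 CPM for si-EIF5A2 (SD, n = 3), and its mean TPM over all 6 libraries was above that of 59.6% of the tested genes, and EPCAM stood at 1.55 ± 0.0962 CPM in NC. Neither ERBB2 nor EPCAM was among the abundant transcripts of these libraries.

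After EIF5A2 knockdown, 5 of the 10 members were lower, 0 were higher and 5 did not pass the test, where a gene was called if its fold change exceeded 1.5 at an adjusted p below 0.05. The E2 enzymes UBE2C and UBE2S fell, as did the catalytic cullin ANAPC2 and the platform subunits ANAPC1 and ANAPC5, with 13.5% (UBE2C) to 66.1% (ANAPC1) of the NC level left. ANAPC4, ANAPC7, ANAPC10, ANAPC11 and ANAPC13 were not called. All 10 members were among the 16208 genes tested, of which 13.6% were called lower and 11.1% higher. The si-EIF5A2 libraries all lay below the NC libraries in 5 members and all above them in 1 (ANAPC7), and the groups overlapped in 4. In all tested genes these shares were 26.5% below and 24.7% above. The median log2 fold change was −0.44 over the members and −0.01 over all tested genes. In bulk RNA, fewer cells in the phases of the cycle that express these genes and less RNA per cell cannot be told apart.

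**Figure D1:**
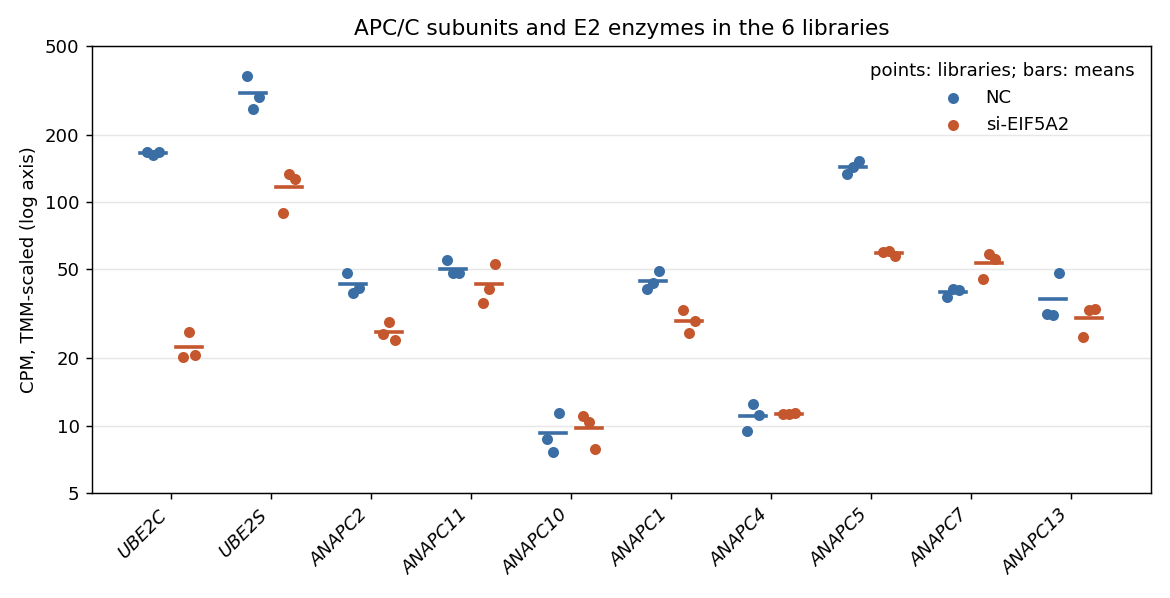
Level of each of the 10 members in the 6 libraries, as TMM-scaled CPM on a log axis, with points for libraries and bars for group means (blue NC, orange si-EIF5A2). UBE2C, UBE2S, ANAPC1, ANAPC2 and ANAPC5 have every si-EIF5A2 point below every NC point, ANAPC7 has every si-EIF5A2 point above, and the other 4 overlap.

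UBE2C (ENSG00000175063, chr20:45812576-45816957, plus strand of GRCh38), the E2 that starts ubiquitin chains, showed the largest change of the members. It gave 168, 162 and 168 CPM in the NC libraries and 20.3, 26.3 and 20.7 CPM in the si-EIF5A2 libraries. The libraries within each group were close to one another and the groups were far apart. The mean fell from 166 ± 3.20 to 22.4 ± 3.39 CPM (SD, n = 3), a log2 fold change of −2.89 (SE 0.12, adjusted p = 4.92e-06, edgeR), and 1.25% of the tested genes had a lower log2 fold change. Leaving out any library in turn gave −3.02 to −2.83. A processed pseudogene of it, UBE2CP5, held 505 counts over the 6 libraries, equal to 1.44% of the UBE2C counts, at 1.09 CPM in NC against 1.99 CPM after knockdown (log2 fold change 0.86, adjusted p = 0.0536). With the counts of its pseudogenes added, the log2 fold change of UBE2C was −2.77.

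UBE2S (ENSG00000108106, chr19:55399745-55407777, minus strand), the E2 that lengthens the chains, was also lower. Its values were 366, 260 and 297 CPM for NC and 89.8, 133 and 127 CPM for si-EIF5A2. The groups did not overlap, although the NC libraries were further apart than for UBE2C. The mean fell from 308 ± 53.9 to 116 ± 23.2 CPM (SD, n = 3), which left 37.8% (log2 fold change −1.41, SE 0.19, adjusted p = 0.00123, edgeR). Without 1 library at a time the log2 fold change was −1.51 to −1.26. The pseudogenes UBE2SP1 and UBE2SP2 were lower too, UBE2SP1 from 7.63 ± 1.12 to 3.15 ± 0.461 CPM (log2 fold change −1.28, adjusted p = 0.00121) and UBE2SP2 by a log2 fold change of −1.96 (adjusted p = 0.0294, 158 counts in all). The sequences of these pseudogenes were not compared with UBE2S here, so how reads were shared among them is uncertain. UBE2SP1 held 2.55% as many counts as UBE2S. Summed with its pseudogenes, UBE2S had a log2 fold change of −1.40.

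Of the catalytic module, ANAPC2 fell and ANAPC11 was not called. ANAPC2 (ENSG00000176248, chr9:137174784-137188549, minus strand) gave 48.3, 39.2 and 41.5 CPM in NC against 25.6, 29.2 and 24.2 CPM after knockdown. All si-EIF5A2 values lay under the NC values. The means were 43.0 ± 4.72 and 26.3 ± 2.59 CPM (SD, n = 3), with a log2 fold change of −0.71 (SE 0.12, adjusted p = 0.00223, edgeR), and the call held without any 1 library (−0.79 to −0.62). ANAPC11 (ENSG00000141552, chr17:81890790-81900991, plus strand), the RING subunit that binds the E2, gave 55.3, 48.0 and 48.2 CPM for NC and 35.4, 41.1 and 52.9 CPM for si-EIF5A2. The highest si-EIF5A2 library was above 2 of the 3 NC libraries, so the groups overlapped. Its log2 fold change was −0.23 (SE 0.15, adjusted p = 0.284, edgeR), and ran from −0.41 without si-EIF5A2 replicate 3 (adjusted p = 0.0437, below the fold limit) to −0.11 without si-EIF5A2 replicate 1 (adjusted p = 0.602). ANAPC11 exons share 6.13% of their bases with NPB on the same strand, a gene with 1069 counts against 16199 for ANAPC11. They also share 1.54% with ALYREF and 0.67% with PCYT2 on the opposite strand.

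ANAPC10 (ENSG00000164162, chr4:144831908-145098541, minus strand), the substrate co-receptor, was expressed at a low level in both groups. The NC libraries had 8.69, 7.61 and 11.4 CPM and the si-EIF5A2 libraries 11.1, 10.4 and 7.88 CPM, and the si-EIF5A2 range lay inside the NC range. The log2 fold change was 0.09 (SE 0.20, adjusted p = 0.776, edgeR), and its sign turned without NC replicate 2 (−0.04) or without si-EIF5A2 replicate 1 (−0.02). Its exons share 10.4% of their bases with ABCE1 on the opposite strand, which held 38799 counts against 3202 for ANAPC10. They share 22.6% with ENSG00000285713 on the same strand, which held 52. Whether the counting used strand is not stated, and without strand the reads of shared bases cannot be told apart.

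The platform subunits were unequal. ANAPC5 (ENSG00000089053, chr12:121308245-121399896, minus strand) had the largest fall among the 8 core subunits, from 134, 143 and 153 CPM in NC to 59.8, 60.4 and 57.5 CPM in si-EIF5A2. The si-EIF5A2 libraries were within a few CPM of one another and far below the NC libraries. The mean dropped from 143 ± 9.15 to 59.2 ± 1.51 CPM (SD, n = 3), leaving 41.4% (log2 fold change −1.27, SE 0.08, adjusted p = 1.66e-05, edgeR). The range without 1 library was −1.32 to −1.23, and 8.52% of the tested genes had a lower log2 fold change. ANAPC1 (ENSG00000153107, chr2:111611639-111884690, minus strand), the largest subunit of the complex, gave 41.1, 43.6 and 49.0 CPM in NC against 33, 26 and 29.4 CPM after knockdown. The groups did not overlap, and the log2 fold change of −0.60 (SE 0.12, adjusted p = 0.00513, edgeR) lay just past the fold limit. The call was lost without NC replicate 3 (−0.53, adjusted p = 0.0177) and without si-EIF5A2 replicate 2 (−0.52, adjusted p = 0.0165). Several genes are named as pseudogenes of ANAPC1, and their sequences were not compared with it here. One of them, ANAPC1P2 (ENSG00000285793), held 19% as many counts, at 6.95 ± 1.15 CPM for NC and 7.26 ± 2.41 CPM for si-EIF5A2. When ANAPC1 was summed with these pseudogenes the log2 fold change was −0.49 (adjusted p = 0.0107, edgeR), below the fold limit. With members summed in this way, 4 were called lower. ANAPC4 (ENSG00000053900, chr4:25377213-25418498, plus strand) gave 9.47, 12.5 and 11.2 CPM in NC against 11.3, 11.3 and 11.4 CPM after knockdown, inside the NC range. Its log2 fold change was 0.04 (SE 0.14, adjusted p = 0.864, edgeR) and became −0.06 without NC replicate 1.

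ANAPC7 and ANAPC13 did not pass the test either. ANAPC7 (ENSG00000196510, chr12:110372900-110403730, minus strand), a repeat protein of the arm, gave 37.7, 40.9 and 40.6 CPM for NC and 45.1, 58.9 and 55.9 CPM for si-EIF5A2. It was the only member with every si-EIF5A2 library above every NC library. Its log2 fold change of 0.42 (SE 0.11, adjusted p = 0.0212, edgeR) was below the fold limit and would have counted as higher with no such limit. Leaving out 1 library gave 0.34 to 0.52, with an adjusted p above the threshold in 5 of the 6 fits (0.0519 to 0.0724). ANAPC13 (ENSG00000129055, chr3:134477706-134486716, minus strand) gave 31.6, 31.2 and 48.0 CPM in NC against 25.0, 32.8 and 33.4 CPM after knockdown. The high value of NC replicate 3 made the NC spread the widest, relative to its mean, of the 10 members. The log2 fold change was −0.28 (SE 0.20, adjusted p = 0.322, edgeR) and −0.06 without that library. ANAPC13 exons share 13% of their bases with CEP63 on the opposite strand, which held 7675 counts against 11363.

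The 6 other core subunits of the complex had log2 fold changes from −0.91 to 0.09. Of these, 1 was called lower, beside 13.6% of all tested genes. The si-EIF5A2 libraries all lay below the NC libraries in 4 and all above in 1, beside 26.5% and 24.7% of all tested genes. CDC26, a small subunit that steadies CDC16, fell from 24.5 ± 0.918 to 13.1 ± 1.13 CPM (SD, n = 3, log2 fold change −0.91, SE 0.11, adjusted p = 4.33e-04, edgeR) and was the 1 gene of this list that was called. The repeat proteins CDC27 (−0.54, adjusted p = 0.00323) and CDC23 (−0.47, adjusted p = 0.00848) and the small subunit ANAPC15 (−0.42, adjusted p = 0.00861) were below the fold limit, with si-EIF5A2 libraries that lay under all NC libraries. CDC27 passed the limit without si-EIF5A2 replicate 1 (−0.62, adjusted p = 0.00458). CDC16 (0.09, adjusted p = 0.347) and ANAPC16 (−0.06, adjusted p = 0.556) had log2 fold changes near 0, although the si-EIF5A2 libraries of CDC16 (138 to 148 CPM) all lay above its NC libraries (132 to 136 CPM). Their median was −0.44, against −0.26 over the 8 core subunits among the members.

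**Figure D2:**
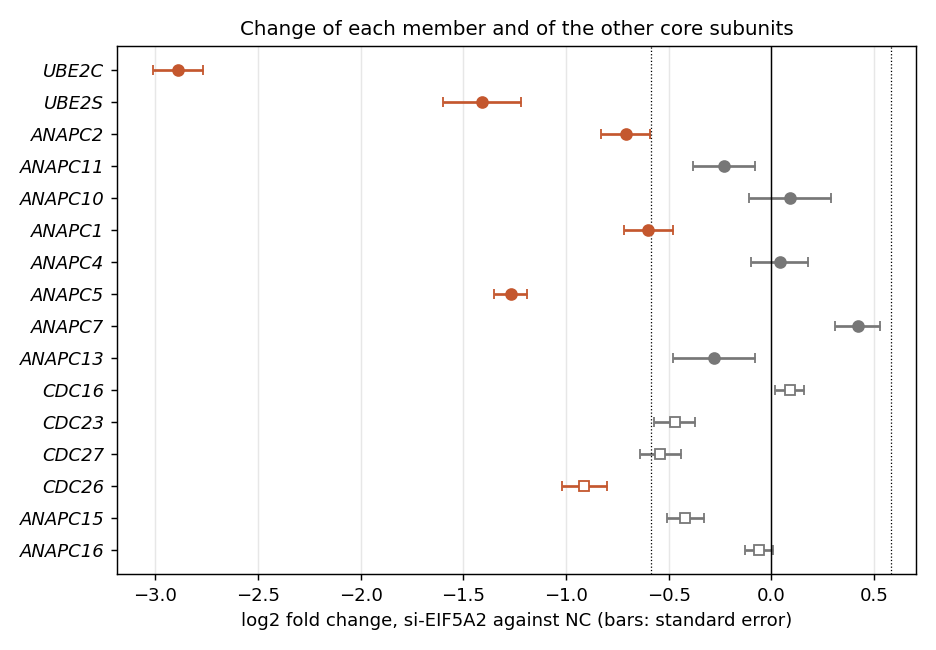
Log2 fold change of si-EIF5A2 against NC with its standard error for the 10 members (filled circles) and the 6 other core subunits (open squares). Dotted lines mark the fold limit of 1.5 and orange marks a call lower, which UBE2C (−2.89), UBE2S (−1.41), ANAPC5 (−1.27), CDC26 (−0.91), ANAPC2 (−0.71) and ANAPC1 (−0.60) reached.

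To compare levels between genes, counts were divided by exon length and scaled to the same total in each library (TPM). In NC the E2 enzymes led, UBE2C at 357 ± 10.8 TPM and UBE2S at 305 ± 48.3 TPM (SD, n = 3), with ranges that overlapped. By their mean over all 6 libraries, knockdown included, they were above 96.1% and 96.3% of the tested genes. The core subunits were far lower. ANAPC13 at 43.4 ± 12.2, ANAPC11 at 34.6 ± 2.16 and ANAPC5 at 32.2 ± 2.81 TPM overlapped, each with the next in this order. Below them came ANAPC2 at 21.8 ± 2.01, ANAPC7 at 18.3 ± 1.18, ANAPC1 at 8.82 ± 1, ANAPC10 at 5.67 ± 1.32 and ANAPC4 at 4.08 ± 0.614 TPM, none of which overlapped with the next. In si-EIF5A2 UBE2S led at 121 ± 21.7 TPM, above UBE2C at 50.6 ± 6.04 TPM without overlap. ANAPC7 at 25.7 ± 2.91 TPM then stood above ANAPC2 at 14.0 ± 1.01 and ANAPC5 at 14.0 ± 0.405 TPM, which overlapped, and ANAPC10 at 6.30 ± 1.12 and ANAPC1 at 6.13 ± 0.893 TPM overlapped as well. Exon length here joins every annotated exon of a gene, so genes with rarely used exons are understated.

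**Figure D3:**
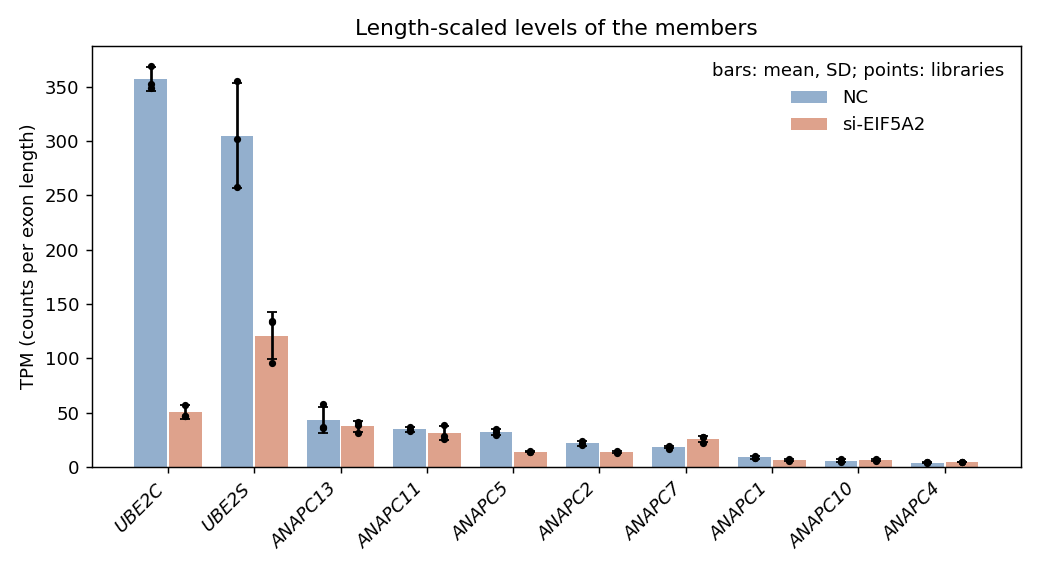
Length-scaled level of each member in TPM on a linear axis from 0, with bars for group means, error bars for SD over 3 libraries and points for libraries. The NC bars of UBE2C (357 TPM) and UBE2S (305 TPM) stand far above the 8 core subunits (4.08 to 43.4 TPM), and in si-EIF5A2 UBE2S (121 TPM) exceeds UBE2C (50.6 TPM).

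Ratios of length-scaled levels within a library described how the parts stood to each other. UBE2C over UBE2S was 0.993, 1.35 and 1.22 in NC and 0.489, 0.431 and 0.355 in si-EIF5A2. UBE2C over the mean of the 8 core subunits was 17.6, 17.6 and 15.7 in NC and 2.95, 3.29 and 2.52 in si-EIF5A2. UBE2S over the same mean went from 14.5 ± 2.77 to 6.92 ± 0.822 (SD, n = 3). All 3 ratios were lower in every si-EIF5A2 library than in any NC library. Within the core, ANAPC5 over ANAPC7 was 1.74, 1.71 and 1.83 in NC and 0.647, 0.501 and 0.503 in si-EIF5A2. Per length, ANAPC5 was the higher of the pair in every NC library and ANAPC7 in every si-EIF5A2 library. By CPM, ANAPC5 was the higher in every si-EIF5A2 library as well (mean 59.2 against 53.3 CPM). The order after knockdown therefore rests on the joined exon lengths, 12.3 kb for ANAPC5 and 6.01 kb for ANAPC7. The summed level of the 8 core subunits was 160, 158 and 188 TPM in NC and 127, 140 and 150 TPM in si-EIF5A2. These ratios are descriptions and were not tested.

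The partners of the complex were set beside its subunits. Of 8 coactivators and inhibitors, 6 were lower and 0 higher (median log2 fold change −2.19), beside 13.6% and 11.1% of all tested genes. The 2 that were not called, named after their values were seen, were MAD2L2 (−0.52, adjusted p = 0.00476) and BUB3 (0.00, adjusted p = 0.997). FBXO43, also named after its values were seen, was called lower with only 4, 13 and 11 counts in the si-EIF5A2 libraries. It left the test when at least 10 counts were required in every library, and 5 genes of this list were then called lower. CDC20, the mitotic coactivator, fell from 364, 351 and 350 CPM in NC to 21.6, 34.2 and 29.1 CPM in si-EIF5A2 (log2 fold change −3.65, SE 0.17, adjusted p = 9.1e-06, edgeR). In the study, qRT-PCR named CDC20 a possible target of EIF5A2, while western blotting did not find CDC20 protein regulated by it. FZR1, the coactivator of late mitosis and G1, gave 30.8, 29.4 and 26.8 CPM for NC and 19.1, 19.6 and 15.7 CPM for si-EIF5A2 (−0.68, SE 0.12, adjusted p = 0.00288, edgeR). The ratio of CDC20 to FZR1 per length was 33.6, 34 and 37.1 in the controls and 3.22, 4.97 and 5.28 after knockdown. The inhibitors FBXO5 (EMI1, −2.26, adjusted p = 2.75e-04), MAD2L1 (−2.13, adjusted p = 8.28e-05) and BUB1B (−2.58, adjusted p = 4.69e-05) fell as well. The substrate list held 25 genes, of which 25 were lower (median −2.61), beside 13.6% of all tested genes. It was led by CDCA5 (−4.12, adjusted p = 4.18e-06), CCNA2 (−3.46, adjusted p = 6.5e-06) and DLGAP5 (−3.45, adjusted p = 3.36e-05). That list was written with results of these libraries known and is no independent evidence of a direction. Its smallest change, SKP2 (−0.99, adjusted p = 0.0199, named after its value was seen), lost the call without si-EIF5A2 replicate 2 (−0.92, adjusted p = 0.074) or replicate 3 (−0.96, adjusted p = 0.069) and stood at −0.65 without NC replicate 2.

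Of the 7 other E2s and deubiquitinases that act with the APC/C, 1 (UBE2D3) was lower, 0 were higher and 6 were not called (median 0.20). Over all tested genes 13.6% were lower and 11.1% higher. UBE2D1, which can start chains in place of UBE2C, gave 15.5, 11.8 and 18.8 CPM in NC against 25.7, 20.7 and 22.3 CPM after knockdown, with no overlap. Its log2 fold change of 0.58 (SE 0.18, adjusted p = 0.0361, edgeR) was just under the fold limit. It passed under 4 other settings, among them the fit without NC replicate 3 (0.74, adjusted p = 0.017), while each of the 5 other fits that left out 1 library gave an adjusted p above the threshold (0.0522 to 0.119). UBE2E1 was at 0.12 (adjusted p = 0.398). Across the 30 other E2 genes, which include these, 4 were lower and 1 was higher (median 0.10), beside 13.6% and 11.1% of all tested genes. The largest falls were UBE2T, the E2 of the Fanconi anaemia pathway (−2.52, SE 0.12, adjusted p = 8.12e-06), UBE2R2, which works with cullin ligases (−1.11, SE 0.07, adjusted p = 2.6e-05), and UBE2D3 (−0.79, SE 0.09, adjusted p = 3.92e-04). The fourth, UBE2F, was named after its value was seen (−0.74, adjusted p = 0.00495). UBE2O, a large E2 that also acts as a ligase, rose from 34.3 ± 2.94 to 72.2 ± 1.94 CPM (SD, n = 3, log2 fold change 1.07, SE 0.09, adjusted p = 7.84e-05, edgeR).

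**Figure D4:**
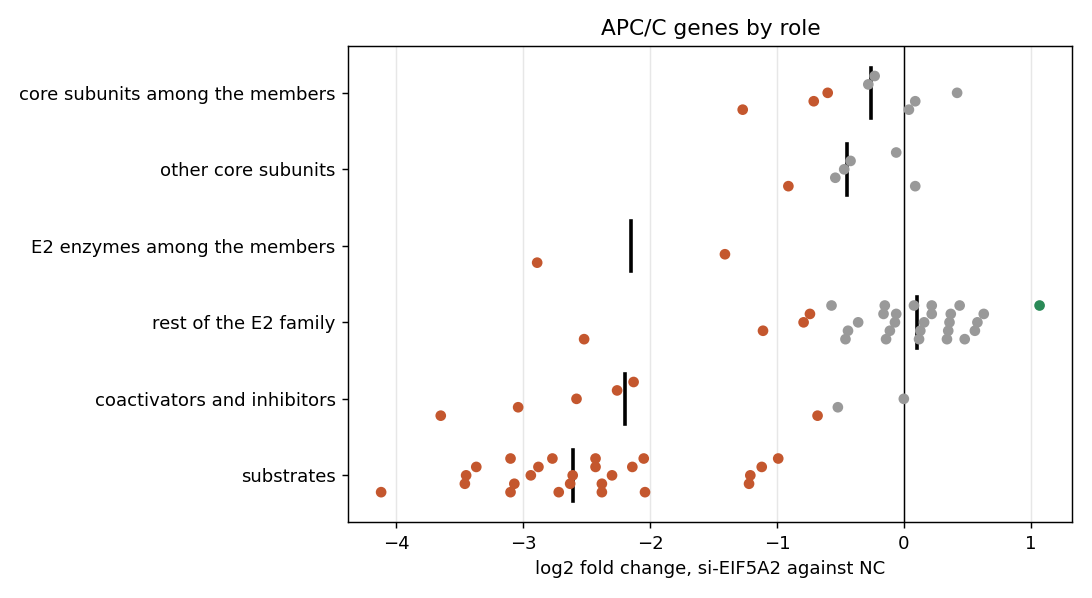
Log2 fold change of si-EIF5A2 against NC for each tested gene of 6 lists, with a black bar at each list's median, orange for genes called lower, green for genes called higher and grey for the rest. The medians were −0.26 for the 8 core subunits among the members, −0.44 for the 6 other core subunits, 0.10 for the 30 other E2 genes, −2.19 for coactivators and inhibitors and −2.61 for substrates.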

How the data were processed

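RNA of SKOV3 cells was sequenced as paired reads in 3 NC and 3 si-EIF5A2 libraries, grouped by their labels. The deposited table holds estimated counts per gene. The study's methods name StringTie and ballgown for expression levels given as FPKM, and do not say how the counts were made. StringTie shares fragments among overlapping transcripts. The values were already whole, and low values pile up at steps of 3.69 to 3.73, so one count is not one fragment. The counting's aligner, genome build and strand setting are not given in the sources used here. The submitters' processing notes name Bowtie 0.12.2 and mouse builds, while the table holds human Ensembl genes. No per-sample column was left unmatched. Library totals were 46900204 to 74142267.

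Genes were filtered by filterByExpr, scaled by TMM and tested with edgeR 4.0.16 in R 4.3.3 (robust glmQLFit and glmQLFTest, the 6 libraries, no block), which was planned for counts and applied to these estimated counts. Benjamini-Hochberg adjustment ran over the 16208 genes tested, and a gene was called if its fold change exceeded 1.5 at an adjusted p below 0.05. The script was tested on simulated data. The p-values set a group difference against the variation between these libraries, moderated across genes. No source says that libraries came from separate cultures, so that variation may be technical. CPM and TPM were computed here, TPM from the joined exons of GENCODE release 29 (GRCh38), which held 58552 of the 58825 identifiers. Windows before gene starts came from RefSeq. The genes named are the 10 members, the 6 other core subunits, CDC20, FZR1, FBXO5, MAD2L1, BUB1B, UBE2D1, UBE2E1, the 3 largest called falls and rises among substrates and other E2 genes, EIF5A2, pseudogenes of members that hold counts, and genes that share exons with a member. The members and lists were chosen with earlier results of these data known. Alternatives were DESeq2 1.42.0, other normalizations and filters, the counts divided by their step, other thresholds, the replicate number as a block, leaving out each library, and, chosen after seeing the data, members summed with their pseudogenes.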

Additional observations from a re-analysis of the deposited data

How the results depend on the processing

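Of 150 log2 fold changes of members under the alternatives, 144 kept their direction and side of the threshold, 3 reversed (ANAPC4 −0.06 without NC replicate 1, ANAPC10 −0.02 without si-EIF5A2 replicate 1 and −0.04 without NC replicate 2, over ranges without 1 library of −0.06 to 0.14 and −0.04 to 0.26) and 3, all of ANAPC1, lost the call (−0.53, −0.52 and, summed with its pseudogenes, −0.49). The cause of these changes was not tested. The members called lower were 3 under the threshold of the study's methods (fold change of 2, unadjusted p), UBE2C, UBE2S and ANAPC5, and with no fold limit 1 member, ANAPC7, was higher. For the other core subunits 2 were called lower without si-EIF5A2 replicate 1, 0 under the methods' threshold and 4 with no fold limit, against 1. Leaving out 1 library at a time gave 1 to 2. For the other E2s and deubiquitinases of the complex, 0 were lower under the methods' threshold, while 1 was higher with RLE normalization, with library size only and without NC replicate 3 (range 0 to 1), and 2 with no fold limit. Across the other E2 genes, 2 were higher with DESeq2, RLE normalization and library size only, 1 to 3 without 1 library, and 8 with no fold limit, while 2 were lower under the methods' threshold and 7 with no fold limit. BUB3, an inhibitor chosen for mention after its values were seen, turned from just below 0 to 0.01 (RLE normalization, library size only, without si-EIF5A2 replicate 2), 0.03 (without si-EIF5A2 replicate 3) and 0.05 (without NC replicate 3), over a range of −0.05 to 0.05.

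Libraries with the same replicate number showed no shared deviation from their group means (correlations of deviations −0.0244, 0.00522 and −0.00269). These values cannot show whether such libraries were handled as pairs. With the replicate block, 2050 genes were lower and 1681 higher in place of 2200 and 1792, 5 members were lower, 24 of the substrates were (SKP2 was not), 1 of the other E2s and deubiquitinases of the complex (UBE2D1) and 2 of the other E2 genes were higher, and BUB3 was at 0.00 with a positive sign.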
